A study of Arabidopsis thaliana with 39 samples.

Results

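The chloroplast carries its own small genome, and the 133 rows whose identifiers start with ATCG in the 4 gene tables were taken as its genes. A row was kept within a table when its mean over the libraries was at least 10, which left 88 of 133 in seedling set 1, 86 in seedling set 2, 94 in seedling set 3 and 89 in shoot apices. Of these, 81 were kept in all 4 tables and 102 in at least 1. The highest mean left out was 9.95 in set 1, 9.22 in set 2, 7.86 in set 3 and 7.83 in apices, and the lowest mean kept was 12.7, 10.3, 10.3 and 10.7. No other measured value chose the members.

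RNA was sequenced from Arabidopsis thaliana plants grown for 7 days with 16 h of light per day, as 39 libraries that fall into 13 groups of 3. Seedling set 1 compared the wild type Col0 with the mutants fld and ld, set 2 compared Col0 with ld, pol2a and the double mutant ld pol2a, and set 3 compared Col0 with ld. The 4 genotypes of set 2 were also sampled as shoot apices, 30 dissected apices per library. Seedling RNA carried an added spike-in RNA and apex RNA did not. No source used here states the alleles. None says either that the 3 libraries of a group came from separate sowings, so a p-value reflects the spread among the libraries alone, which may be technical. LD is a nuclear homeodomain protein and FLD a histone demethylase-like protein of the autonomous flowering pathway. POL2A is the catalytic subunit of DNA polymerase epsilon, which copies nuclear DNA. None of the 3 mutated genes lies in the chloroplast genome.

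Chloroplast genes encode core subunits of the photosystems, the NADH dehydrogenase-like complex, the ATP synthase, a bacterial-type RNA polymerase and part of the chloroplast ribosome. A phage-type polymerase from a nuclear gene transcribes many of them as well, often as long transcripts that span neighbouring genes. Chloroplast messenger RNAs do not carry the stable poly(A) tails of nuclear messengers, and short A-rich tails added in the chloroplast mark RNA for degradation. The libraries here were selected for poly(A) RNA, so each value below counts the chloroplast RNA that this selection retained and is no measure of the whole chloroplast RNA pool.

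The reference annotation used here (TAIR10.1) ties few ATCG identifiers to a gene, and 6 are named here. They are ATCG00420 (ndhJ) and ATCG00430 (ndhK), subunits of the NADH dehydrogenase-like complex, ATCG00530 (cemA), an envelope membrane protein, ATCG00660 (rpl20) and ATCG01310 (rpl2), ribosomal proteins, and ATCG00670 (clpP), the proteolytic subunit of the Clp protease. The other 127 identifiers are given no name or role, so counts by photosystem, polymerase or ATP synthase genes were not made. The ndhJ gene lies at Pltd:48677-49153 and ndhK next to it at Pltd:49257-49934, both on the minus strand. The others lie at Pltd:60741-61430 (cemA, plus strand), Pltd:68512-68865 (rpl20), Pltd:69910-71882 (clpP, with 3 exons) and Pltd:84337-85843 (rpl2, with 2 exons), the last 3 on the minus strand. rpl2 has 2 copies in the genome. The position and strand given are those of a single copy, and which copy ATCG01310 stands for was not determined. Reads from rpl2 could be split or dropped in counting, so its values are uncertain.

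Poly(A) selection captures RNA by stretches of A. Whether runs as short as those here can hold an RNA in the selection was not tested. The longest run of A in the sense strand of each named gene is shown in capitals, with flanking bases in lower case, 5′ to 3′, from the RefSeq chloroplast sequence of TAIR10.1.
ndhJ, Pltd:48876-48913, exon: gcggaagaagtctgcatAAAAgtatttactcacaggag
ndhK, Pltd:49874-49913, exon: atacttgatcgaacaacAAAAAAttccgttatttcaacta
cemA, Pltd:60741-60768, exon: atggcAAAAAAgaaagcattcattcctt
rpl20, Pltd:68512-68538, exon: acaatttcgaatgacatAAAAAAAtaa
clpP, Pltd:70387-70433, intron: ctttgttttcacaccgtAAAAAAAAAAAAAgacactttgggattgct
rpl2, Pltd:84416-84456, exon: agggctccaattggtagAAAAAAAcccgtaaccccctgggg
The run held 4 bases in ndhJ, 6 in ndhK and cemA, 7 in rpl20 and rpl2, and 13 in the clpP intron. Of the chloroplast's 87 protein-coding genes, 86.2% hold a run of at least 4, 58.6% one of at least 6, 43.7% one of at least 7 and 5.75% one of at least 13.

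Library totals, in units of 1e6 reads, were 10.4 to 14.4 (set 1), 13.2 to 35 (set 2), 23.1 to 37.8 (set 3) and 12 to 21.1 (apices), and the members took 26658 to 751169 reads of a library. FLD RNA in fld (0.351 to 0.953 per 1e6 of the library's summed signal) lay below Col0 (9.03 to 11.4). LD RNA was lower in ld (14.7 to 16.74) than in Col0 (18.15 to 20.51) seedlings of set 3. In set 1 it was higher in ld than in Col0 seedlings (27.6 ± 1.32 against 10.5 ± 0.27, mean ± SD, n = 3), and higher in fld too (20.2 ± 0.29). In set 2 ld overlapped Col0, so LD RNA does not check the ld labels of sets 1 and 2. POL2A RNA does not check the pol2a labels either: it was higher in pol2a than in Col0 seedlings of set 2 (22.8 ± 1.26 against 15.2 ± 0.19) and overlapped Col0 in apices. In ld apices LD stood at 11.2, 12.6 and 3.75 per 1e6, against 13.3 to 22.3 in Col0 and 3.5 to 5.26 in ld pol2a. Library 3 of the ld apices also stood apart over all genes: its counts differed from libraries 1 and 2 with a chi-square of 64.1 and 43 per degree of freedom, and libraries 1 and 2 differed from each other with 6.22. Col0 apices split in a like way at lower values. Col0 library 3 differed from Col0 libraries 1 and 2 with 19 and 25.8, and these from each other with 5.86. The highest value within pol2a was 24.1, between libraries 1 and 3. The main results of the ld apices are given with and without ld library 3. As a check of tissue, the green markers LHCB1.1, LHCB2.1, RCA, CAB1 and RBCS1A were counted in every apex library. Of the root markers, SHR had 233 to 673 counts, WOX5 16 to 79 and PHT1;1 11 to 45. CASP1, a root endodermis gene, stood at 8 to 45 counts, MYB36 at 8 to 35 and RHD6 at 0 to 1. Of the meristem markers, STM had 51 to 231 counts and CLV3 had 1 to 6. WUS was at 0 in 7 of the 12 libraries.

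As a share of all RNA counted, the chloroplast genes changed most in shoot apices. Their share of all counts was 0.377%, 0.309% and 0.429% in the 3 Col0 libraries, 1.11%, 0.717% and 0.633% in pol2a, and 0.556%, 0.816% and 0.818% in ld pol2a. Every pol2a and ld pol2a library lay above every Col0 library, and the group means were 2.2 and 1.96 times that of Col0. The ld apices overlapped Col0, with 0.206% and 0.305% in libraries 1 and 2 and 0.749% in library 3. The mean of ld was 1.13 times that of Col0 with all 3 libraries and 0.688 times without library 3. The 95% Wilson interval of each apex share reached at most 0.00562 percentage points to either side, which covers counting error only. In bulk tissue, fewer cells of a type and less RNA per cell cannot be told apart.

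**Figure D1:**
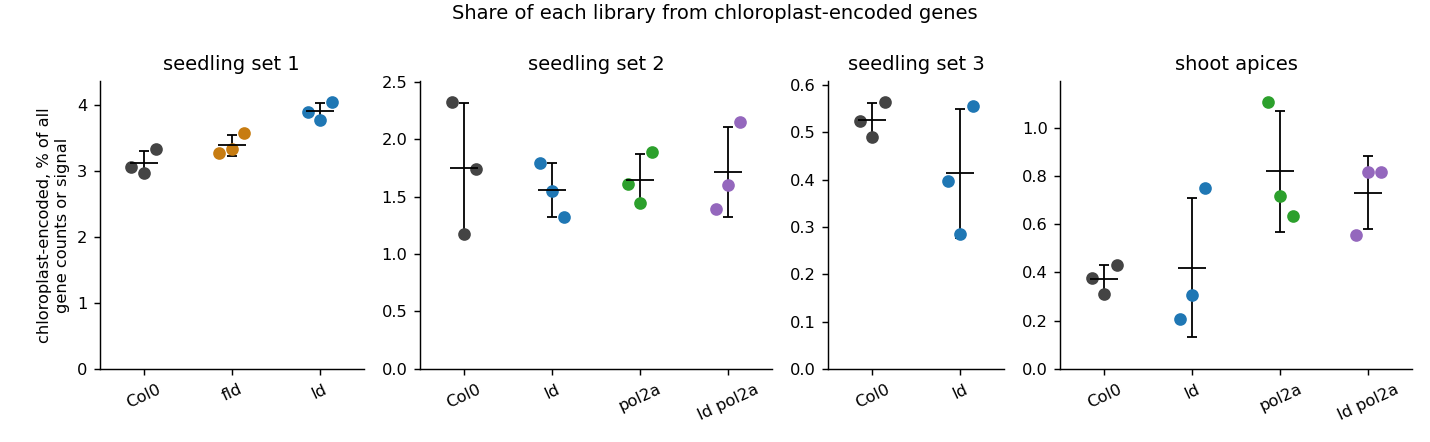
Share of each library's gene counts (apices) or spike-in scaled signal (seedlings) that came from kept chloroplast-encoded genes, in percent. Points are the 3 libraries of a group in order of replicate number, bars are the mean ± SD; the y axes differ between panels. In apices all pol2a and ld pol2a libraries lie above Col0, and in set 1 all ld libraries do.

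The rise in apices came from a minority of the genes. With 2-fold as the dividing line, 21 of 89 members were higher in pol2a than in Col0 apices, at a median of 4.93-fold, and the other 68 had a median of 0.853-fold. These 21, called the raised genes here, were picked by that fold, so it is a description and not a test. The member just inside the line stood at 2.73-fold and the member just outside at 1.96-fold. Together the raised genes had 522, 489 and 815 counts per 1e6 counts of the library (CPM) in Col0 apices, 7804, 4377 and 4142 in pol2a, and 3312, 4879 and 5440 in ld pol2a. The other members had 3250, 2597 and 3478 CPM in Col0, 3248, 2793 and 2192 in pol2a, and 2243, 3283 and 2740 in ld pol2a, so these groups overlapped. The raised genes made up 13.8 to 19% of the chloroplast counts in Col0 apices, 61 to 70.6% in pol2a and 59.6 to 66.5% in ld pol2a.

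In ld apices the raised genes summed to 526, 1174 and 4628 CPM, a mean 3.47 times that of Col0, or 1.4 times without library 3. Libraries 1 and 2 thus lay near or moderately above Col0, and library 3 fell within the pol2a range. All 21 raised genes exceeded every Col0 library in ld library 3, 17 did in library 2 and 1 did in library 1. Of the other 68 members, 66, 60 and 29 lay below every Col0 library in ld libraries 1, 2 and 3. The 3 ld libraries therefore showed different chloroplast profiles, and a mean over them describes none of the 3.

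**Figure D2:**
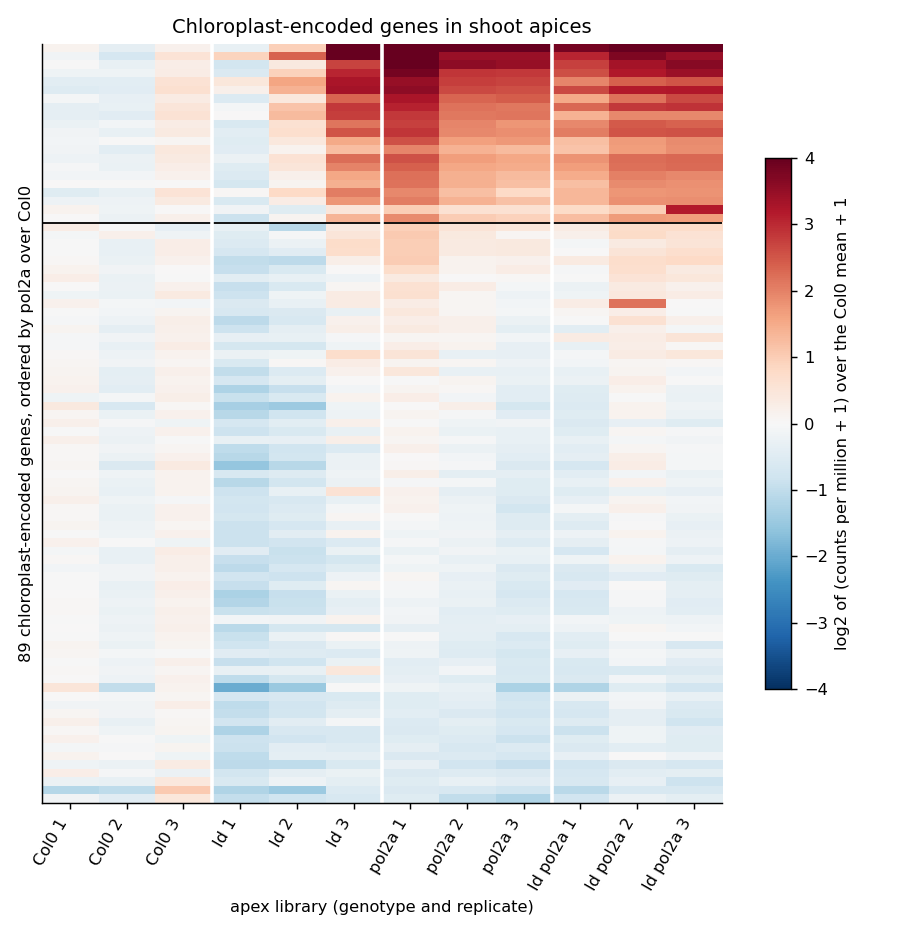
Each row is 1 of the 89 chloroplast-encoded genes kept in apices and each column 1 apex library; colour is the log2 ratio of CPM plus 1 to the Col0 mean plus 1, cut at 4 in either direction. Rows are ordered by the ratio of pol2a to Col0 and the black line parts the 21 genes at 2-fold or more, which are also high in ld pol2a and in ld library 3.

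Tested gene by gene with edgeR's quasi-likelihood test and Benjamini-Hochberg adjustment over all 18254 apex genes, 10 of 89 members were higher in pol2a than in Col0 at an adjusted p under 0.05, and none was lower. Over all genes, 3.59% were called higher and 2.28% lower. At an unadjusted p under 0.05, 32 members passed, and DESeq2 called 15 higher and 2 lower. In ld pol2a, 20 members were higher and 1 was lower, against 15.0% and 11.1% of all genes. The pol2a and ld pol2a comparisons share their Col0 libraries. Leaving out 1 library lowered the pol2a count to between 0 and 7 and the ld pol2a count of 21 to between 4 and 19, so the number called rests on all 3 libraries of each group. It was 0 in pol2a without Col0 library 1 or without Col0 library 2. The raised genes' summed ratio of pol2a to Col0 stayed at 7 or more under every library left out. Those genes were picked by their fold in these same libraries and were not picked again, so a high ratio follows from the choice.

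The ld apices gave 0 members higher and 3 lower by edgeR, with 0.373% and 0.603% of all genes called. At an unadjusted p under 0.05, 40 members passed, and DESeq2 called 1 higher and 14 lower. Without ld library 3, 46 members were called, and all 46 were lower; leaving out any other single library of ld or Col0 gave 0. Without it, 60 passed at an unadjusted p under 0.05 and DESeq2 called 1 higher and 53 lower. The 68 members outside the raised genes had a median log2 change of -0.67 with all libraries and -1.06 without ld library 3. With replicate number as a block, edgeR called 5 members lower in place of 3.

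Among the named genes, both NADH dehydrogenase-like subunits were raised genes. ndhK had 13.4, 12.6 and 30.4 TMM-scaled CPM (CPM with library sizes scaled by edgeR) in Col0 apices, 225, 126.8 and 121.6 in pol2a, and 67.6, 100.8 and 109.9 in ld pol2a. All 6 mutant libraries lay above Col0, with a log2 change of 3.07 ± 0.68 (SE, adjusted p = 0.0207, edgeR) in pol2a and 2.3 ± 0.66 (adjusted p = 0.0233) in ld pol2a. Its neighbour ndhJ had 10.1, 8.76 and 21.4 in Col0, 102.8, 58.6 and 60.5 in pol2a, and 32.9, 52.1 and 52.9 in ld pol2a. The pol2a change of ndhJ was 2.46 ± 0.65 (adjusted p = 0.0436, edgeR) and its ld pol2a change, 1.77 ± 0.64 (adjusted p = 0.0583), missed the threshold (0.034 with replicate number as a block). In ld, ndhK had 21.5, 49.4 and 202.6 and ndhJ 11.1, 28.4 and 104.7, so library 3 held the high value of both. Leaving out any 1 of the 6 libraries ended the ndhJ call in pol2a (adjusted p up to 0.163, edgeR). The ndhK call ended without Col0 library 1, Col0 library 2 or pol2a library 1 in pol2a (up to 0.0926), and without Col0 library 1 or 2 or ld pol2a library 2 or 3 in ld pol2a (up to 0.0858).

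Of the ribosomal protein genes, rpl20 had 7.33, 6.14 and 6.1 TMM-scaled CPM in Col0 apices, 4.19, 4.03 and 3.68 in pol2a, and 4.57, 6.52 and 5.59 in ld pol2a. Its pol2a libraries all lay below Col0, by a log2 change of -0.72 ± 0.26 that missed the threshold (adjusted p = 0.128, edgeR). rpl2 had 0.68, 0.34 and 0.6 in Col0 and 1.51, 2.08 and 13.1 in ld pol2a, and library 3 held the high value. Its log2 change in ld pol2a was 3.34 ± 0.89 (adjusted p = 0.0163, edgeR), on a gene with 2 copies whose counting is uncertain. That call ended without Col0 library 2 or ld pol2a library 3 (adjusted p up to 0.0991, edgeR).

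cemA and clpP overlapped Col0 in every mutant. cemA had 24.2, 17 and 26.9 TMM-scaled CPM in Col0 apices and 26.8, 17.1 and 15.3 in pol2a, a log2 change of -0.21 ± 0.38 (adjusted p = 0.824, edgeR). clpP had 42.9, 33 and 56.4 in Col0 and 91, 54.5 and 56.1 in pol2a, a change of 0.61 ± 0.41 (adjusted p = 0.457, edgeR). The part of the A runs in these changes was not tested.

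**Figure D3:**
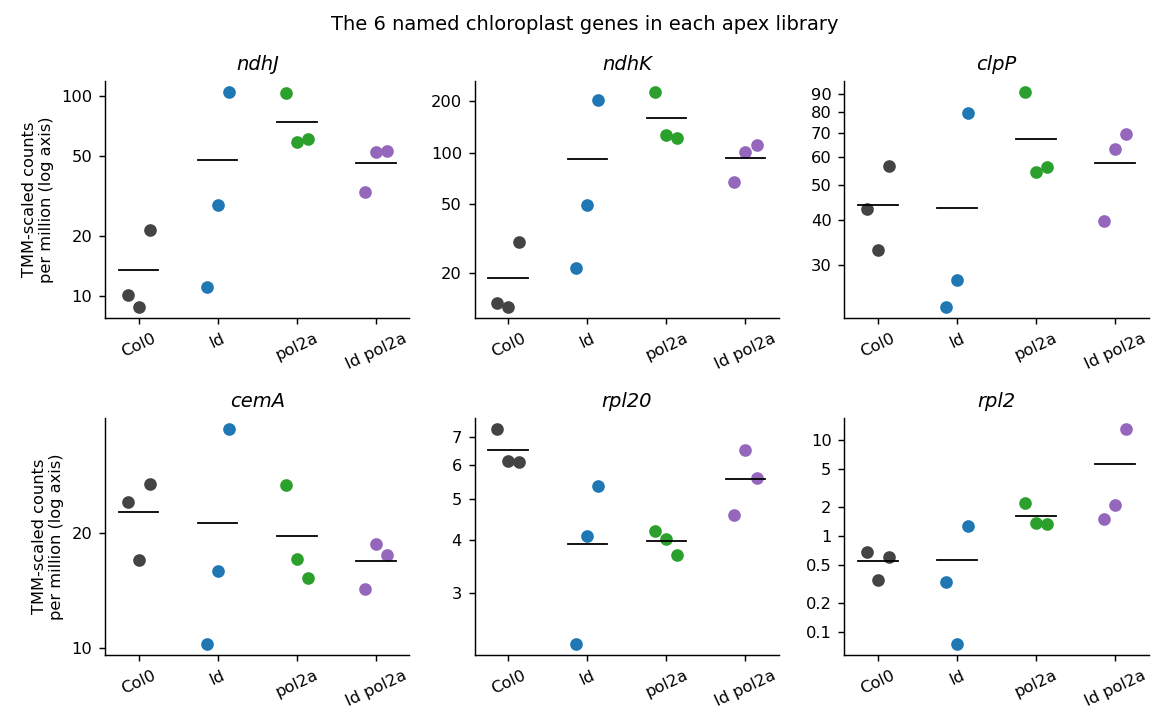
TMM-scaled CPM (log axis) of the 6 named chloroplast genes in the 12 apex libraries; points are libraries in order of replicate number and lines are group means. ndhJ and ndhK are higher in every pol2a and ld pol2a library than in Col0, and ld library 3 lies within or near the pol2a range for both.

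The 2 unnamed identifiers with the largest called rises behaved like ndhK. ATCG00470 had 36.1, 23.5 and 39.9 TMM-scaled CPM in Col0 apices and 1606, 906.9 and 819.9 in pol2a, a log2 change of 5.07 ± 0.99 (adjusted p = 0.0108, edgeR). ATCG00220 had 2.57, 1.38 and 5.12 in Col0 and 77.3, 41.2 and 41.1 in pol2a, a change of 4.14 ± 0.91 (adjusted p = 0.0198, edgeR). Both calls ended without Col0 library 1 or 2 (adjusted p up to 0.0564 and 0.0891, edgeR), and that of ATCG00220 also without pol2a library 1. Some raised genes sat beside each other in the identifier numbering, and whether more did so than in other picks of 21 members was not tested. Of the 21, 12 stood in runs of at least 3 consecutive kept identifiers, namely 9 in the longest run, at 2.73-fold to 8.12-fold, and 3 around ndhJ and ndhK, at 4.78-fold to 8.52-fold.

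Nuclear genes for chloroplast functions did not rise with them. Of 19 nuclear genes of the chloroplast transcription machinery, 8 fell in pol2a apices and 8 in ld pol2a apices, and none rose (edgeR; DESeq2 called 9 and 8 lower and none higher; 11 and 9 passed at an unadjusted p under 0.05). The largest fall in pol2a was of FLN2, a fructokinase-like protein bound to the chloroplast polymerase, at a log2 change of -0.81 ± 0.11 (adjusted p = 0.00102, edgeR). In ld pol2a it was SIG5, a sigma factor that guides the polymerase to promoters, at -1.69 ± 0.31 (adjusted p = 0.00243, edgeR). Of all genes, 2.28% were called lower in pol2a and 11.1% in ld pol2a. Of 32 nuclear partners of the chloroplast complexes, 13 fell in ld pol2a (15 by DESeq2), among them the NADH dehydrogenase-like subunits NDHM (-1.17 ± 0.17, adjusted p = 0.000526, edgeR) and NDHN (-1 ± 0.11, adjusted p = 0.000127). Of 11 nuclear genes of chloroplast RNA maturation and decay, 1 fell in pol2a and 6 in ld pol2a (4 and 8 by DESeq2), including the endonuclease-like RNA-binding protein CSP41A (-0.94 ± 0.11, adjusted p = 0.000183, edgeR). Mitochondrion-encoded genes took 0.109 to 0.139% of counts in Col0 apices, 0.105 to 0.168% in pol2a and 0.176 to 0.268% in ld pol2a.

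The 5 green markers summed to 65296 to 78442 CPM in Col0 apices, 69524 to 72898 in pol2a and 53080 to 56675 in ld pol2a. The 6 root markers summed to 31.5 to 32.8, 39.1 to 44.4 and 39.2 to 41.6 CPM, and the 5 meristem markers to 93 to 103.1, 99.2 to 115.6 and 67.5 to 82.5. Single genes made up most of the root and meristem sums. SHR had a mean of 422.2 counts over the 12 libraries, and the next root marker, WOX5, had 30.75. CLV1 had a mean of 1163 counts, and the next meristem marker, STM, had 129. The root marker RHD6 was at 0 in 9 of the 12 libraries. In ld apices the green markers summed to 55650, 59467 and 82964 CPM in libraries 1, 2 and 3, so library 3, whose chloroplast share was the high one, had the highest value of the 12 libraries. The root markers of ld summed to 24.8 to 27 CPM and its meristem markers to 99.9 to 109.2. The part of tissue makeup in the chloroplast gene changes was not tested.

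In Col0, chloroplast genes took a larger share of the seedling libraries than of the apex libraries, with another composition. The share of a library's signal was 2.97 to 3.33% in set 1 Col0, 1.18 to 2.32% in set 2 Col0 and 0.491 to 0.563% in set 3 Col0, sets that were prepared and scaled separately. The genes raised in pol2a apices made up 59.6 to 62.7% of the chloroplast signal in set 1 Col0, 64.4 to 74.8% in set 2 Col0 and 82.6 to 84.3% in set 3 Col0. Those genes were picked on the apex libraries, so their shares of 13.8 to 19% in Col0 apices and 61 to 70.6% in pol2a apices follow from the choice, and the seedling shares beside them are a description with no test. Seedling RNA was extracted with Trizol and apex RNA with a column kit, so tissue and extraction cannot be told apart. The most abundant member, ATCG00790, alone held 25.4 to 25.9%, 31.1 to 39.8% and 34.3 to 36.2% of the chloroplast signal in the Col0 libraries of sets 1, 2 and 3, and in Col0 apices the most abundant was another, ATCG00490, at 20.1 to 20.5%.

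Ranked by their Col0 level, the members kept nearly the same order in seedling sets 1 and 2 (Spearman's rho 0.97 across 85 members), and were less alike between sets 1 and 3 (0.86, 84 members). Against Col0 apices rho was 0.5, 0.49 and 0.61 for sets 1, 2 and 3 (82, 82 and 85 members). These correlations are across genes, which share libraries and depth, and are given as a description. The pair ndhJ and ndhK shows the difference: per 1e6 of library counts or signal and per kilobase of gene, Col0 levels were 143.2 and 1271 in set 1, 67.4 and 652 in set 2, 33.1 and 176 in set 3, and 26.8 and 26.4 in apices. Adjacent genes thus differed several-fold in seedlings and hardly in Col0 apices. ATCG00040 was the 1 identifier kept in apices, at 396 to 881 counts, that was listed at 0 in every library of sets 1 and 2; it had a signal of 82 to 152.9 in set 3.

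Seedling values are signals, gene counts divided by 1 factor per library, so that a global change in RNA per spike-in is preserved. On that scale most genes rose in every comparison but that of pol2a. The median log2 change over all genes was 1.66 in fld, 1.23, 0.56 and 0.69 in ld of sets 1, 2 and 3, 0.06 in pol2a and 1.48 in ld pol2a. The chloroplast genes had medians of 1.66 in fld, 1.38, 0.68 and 0.12 in ld of sets 1, 2 and 3, 0.2 in pol2a and 1.57 in ld pol2a. In ld of set 3 most genes rose and the chloroplast genes did so much less; in the other 5 comparisons their median lay at or slightly above that of all genes. By limma with Benjamini-Hochberg adjustment, 82 of 88 members were higher in fld, where 98.8% of all genes were, 81 of 88 in ld of set 1 (97.1%), 56 of 86 in ld of set 2 (79.8%), 28 of 86 in pol2a (34.0%), 82 of 86 in ld pol2a (97.9%) and 28 of 94 in ld of set 3 (94.4%). The changes below are relative to all genes, with that shift removed. In each seedling set, 1 direction of variation among libraries of a group was smaller than counting noise alone would give, so the seedling p-values are too small by an unknown amount.

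In set 1 the chloroplast genes spread in both directions. Relative to all genes, limma called 33 of 88 higher and 28 lower in fld, and 37 higher and 25 lower in ld, and the 2 comparisons share their Col0 libraries. Over all genes, 29.4% were called higher and 29.4% lower in fld, and 25.4% and 27.6% in ld. The members' interquartile range ran from -0.38 to 0.55 in fld and from -0.38 to 0.51 in ld, wider than that of all genes at -0.26 to 0.27 and -0.22 to 0.24. The chloroplast share of the signal rose from 2.97 to 3.33% in Col0 to 3.77 to 4.04% in ld, with no overlap, and was 3.27 to 3.57% in fld, which overlapped. With 3 libraries against 3, no exact permutation test can give a p below 0.1.

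ndhK and ndhJ parted in set 1. ndhK had signals of 5237, 5008 and 5602 in Col0, 26284, 24504 and 27018 in fld, and 20272, 22138 and 21541 in ld. Relative to all genes ndhK rose by a log2 change of 0.63 ± 0.03 in fld (adjusted p = 1.31e-13, limma) and 0.77 ± 0.03 in ld (adjusted p = 7.88e-15). ndhJ had 430.8, 402.3 and 422.7 in Col0, 961.5, 944.4 and 1002 in fld, and 732, 816.3 and 857.2 in ld. Its signal was higher in every mutant library, by less than the shift of all genes, so that relative to them ndhJ fell by 0.45 ± 0.05 in fld (adjusted p = 8.66e-08, limma) and 0.31 ± 0.05 in ld (adjusted p = 1.77e-05). clpP fell in the same sense, by 0.87 ± 0.05 in fld (adjusted p = 7.13e-12, limma) and 0.37 ± 0.05 in ld (adjusted p = 2.97e-06). rpl20 rose by 0.74 ± 0.07 and 0.5 ± 0.07 and cemA by 0.39 ± 0.09 and 0.35 ± 0.09 (limma, each past the threshold).

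The 2 unnamed identifiers with the largest called falls had their falls in this set. ATCG01180 had signals of 385.4, 381.4 and 272.4 in Col0 and 217.6, 336.4 and 302.2 in fld, where the groups overlapped on the deposited scale while all genes had risen. ATCG01180 fell, relative to all genes, by 1.94 ± 0.19 in fld (adjusted p = 2.44e-08, limma). ATCG00920 had 72.5, 89.5 and 49.4 in Col0 and 45.1, 21.3 and 71.5 in ld, a fall of 1.95 ± 0.33 (adjusted p = 4.04e-05, limma). Of 29 mitochondrion-encoded genes, 28 fell relative to all genes in fld of the same set and 29 in ld (limma), with medians of -1.24 and -1.01.

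In set 2 the Col0 libraries themselves differed by up to 2-fold in chloroplast share, with 2.32%, 1.18% and 1.74%. The ld libraries lay at 1.33 to 1.8%, pol2a at 1.44 to 1.89% and ld pol2a at 1.39 to 2.15%, all overlapping Col0. The members outside the raised genes had 8271, 2966 and 5031 per 1e6 of signal in the 3 Col0 libraries, a wider spread than between any 2 genotype means. Relative to all genes, limma called 15 of 86 members higher and 6 lower in ld (18.2% and 16.2% of all genes), 25 and 10 in pol2a (30.0% and 29.9%), and 16 and 10 in ld pol2a (29.2% and 28.3%). The balance of directions rested on single Col0 libraries: without Col0 library 2, limma called 9 higher and 13 lower in ld, 16 and 19 in pol2a, and 7 and 21 in ld pol2a, and without Col0 library 1 it called 22 and 1, 34 and 5, and 30 and 6. The members' median within-group SD in set 2 was 0.44 on the log2 scale, against 0.1 for all genes.

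The pair ndhJ and ndhK moved the other way round in set 2 single mutants. ndhJ had signals of 540.7, 262.8 and 361.7 in Col0, 999.5, 796.3 and 716.9 in ld, and 673.4, 706.3 and 804 in pol2a. Neither mutant overlapped Col0 on this deposited scale, where 79.8% of all genes were called higher in ld and 34.0% in pol2a (limma). Overlap was not examined relative to all genes. On that relative scale ndhJ rose by 0.59 ± 0.18 in ld (adjusted p = 0.0143, limma) and 0.91 ± 0.18 in pol2a (adjusted p = 0.000194). ndhK had 7207, 3581 and 5237 in Col0, 5842, 4999 and 4223 in ld, and 3656, 3080 and 4211 in pol2a, which overlapped Col0 in both mutants. Relative to all genes it fell by 0.61 ± 0.19 in ld (adjusted p = 0.0158, limma) and 0.56 ± 0.19 in pol2a (adjusted p = 0.0141). In ld pol2a, ndhK had 20634, 23200 and 35587, a rise of 0.84 ± 0.19 (adjusted p = 0.000653, limma), and ndhJ did not pass, at 0.01 ± 0.18. Calls that ended with 1 library left out were ndhJ in ld (Col0 library 2 or ld library 1, adjusted p up to 0.116, limma), ndhK in ld (Col0 library 1 or 3 or ld library 3, up to 0.128) and ndhK in pol2a (Col0 library 1 or pol2a library 2, up to 0.13). All 3 also ended with edgeR on recovered reads (adjusted p of 0.144, 0.122 and 0.106). ATCG00470 and ATCG00220, which had the largest called rises in apices, did not pass in pol2a seedlings, at 0.08 ± 0.2 and -0.31 ± 0.14.

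The interaction, the effect of ld in the pol2a background minus its effect in Col0, was called higher for 16 of 86 members and lower for 30 in set 2 (25.5% and 25.9% of all genes, limma). In apices it was called higher for 3 of 89 and lower for 1 (5.29% and 2.53%, edgeR). The apex ld group includes library 3, and without it 30 members were called in place of 4 (0 to 30 over the 12 libraries left out in turn).

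In set 3 every chloroplast gene called in ld fell relative to all genes. Limma called 56 of 94 members lower and 0 higher, where 19.3% and 19.2% of all genes were called. At an unadjusted p under 0.05, 59 passed, and edgeR on whole reads recovered from the signal called 45 lower and 0 higher. The members' median was -0.55, with an interquartile range from -0.72 to -0.25. Chloroplast genes took 0.524%, 0.491% and 0.563% of the Col0 signal and 0.398%, 0.286% and 0.556% of the ld signal, so library 3 of ld lay within the Col0 range. The raised genes overlapped Col0, with 3392, 2331 and 4883 per 1e6 against 4358, 4051 and 4752, and the other members did not, with 587, 528 and 679 against 880, 854 and 883. Limma called 5 of the 21 raised genes lower, with log2 changes from -0.79 to 0.28 over the 21. It called 48 of 64 other apex members lower. Of the named genes, ndhK (-0.66 ± 0.16, adjusted p = 0.00732), cemA (-0.67 ± 0.13, adjusted p = 0.00137), rpl20 (-0.46 ± 0.13, adjusted p = 0.0128) and clpP (-0.68 ± 0.09, adjusted p = 0.000149) fell by limma, and ndhJ and rpl2 did not pass. The ndhK call ended with edgeR on recovered reads (adjusted p = 0.155), and without ld library 2 the set 3 count was 4 higher and 48 lower. Their deposited signals hardly moved: clpP had 1970, 1876 and 2255 in Col0 and 1918, 1804 and 2461 in ld.

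**Figure D4:**
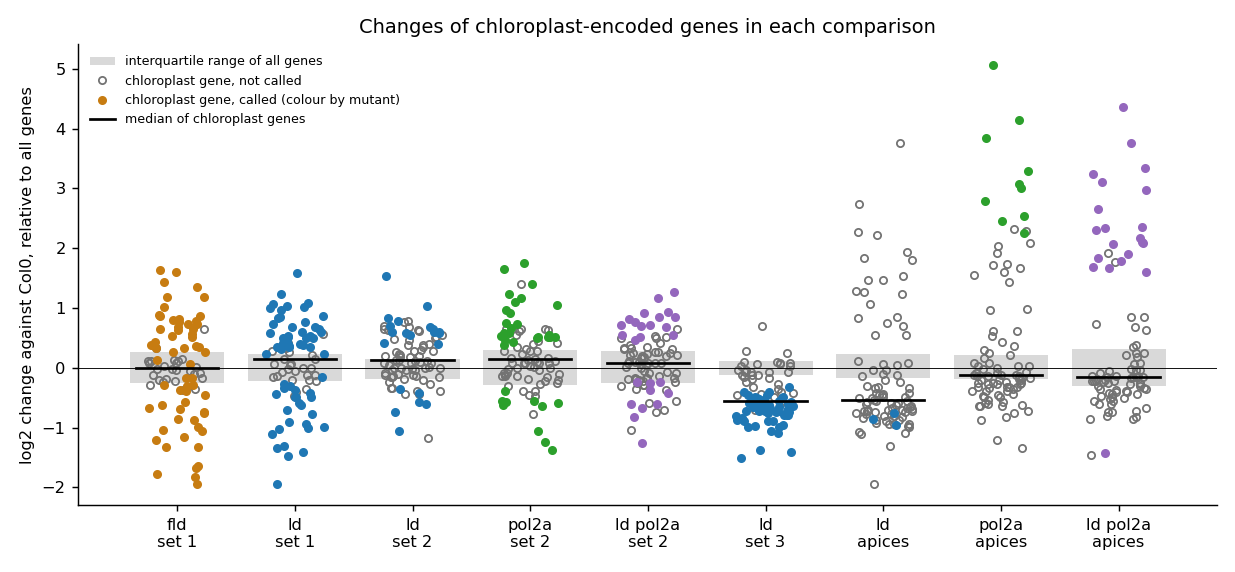
Log2 change of each chloroplast-encoded gene against Col0, relative to all genes, in the 6 seedling and 3 apex comparisons. Filled points passed an adjusted p of 0.05 (limma in seedlings, edgeR in apices), black lines are member medians and grey boxes the interquartile range of all genes; the members' median is lowest in ld of set 3 and in ld apices, and the longest upper tails are in apices.

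The 3 seedling tests of ld used separate Col0 libraries, and many chloroplast genes were called in opposite directions. Of 82 members tested in all 3 sets, 34 (41.5%) were called higher in one set and lower in another, against 20.2% of the 18832 genes tested in all 3 (limma, relative to all genes). Members were called more often than all genes in sets 1 and 3 and less often in set 2, and the 41.5% was not adjusted for that. No member was called lower in all 3, against 2.28% of all genes. That share amounts to so few of 82 members that finding none says little about them. Since set 3 called none higher, none could be higher in all 3. Between sets 1 and 2, 2 members were called in the same direction and 14 in opposite directions, or 87.5% of those called in both against 54.8% of all genes, and Spearman's rho of the log2 changes was -0.45 over 85 members (-0.03 over 18868 genes). Sets 1 and 3 called 15 members the same way and 25 in opposite ways (62.5%, against 48.2% of all genes), with a rho of 0.07 over 84 members. Sets 2 and 3 called 4 the same way and 2 in opposite ways, where 23.4% of all genes called in both had opposite signs. These shares and rho values are descriptions across genes. ndhJ and ndhK are both among the 14 of opposite sign in sets 1 and 2. Their set 2 calls were not stable: that of ndhJ ended without 2 of the 6 libraries and that of ndhK without 3. Both also ended with edgeR on recovered reads (adjusted p of 0.144 and 0.122). The balance of directions in ld of set 2 rested on single Col0 libraries, as given above, so the opposite signs between sets 1 and 2 carry that limit. PGR3, a nuclear-encoded RNA-binding protein of chloroplast transcripts, also differed in direction: it fell by 0.42 ± 0.07 in ld of set 1 (adjusted p = 2.81e-05, limma) and rose by 0.57 ± 0.05 in set 2 (adjusted p = 1.74e-08) and 0.38 ± 0.04 in set 3 (adjusted p = 9.64e-06).

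**Figure D5:**
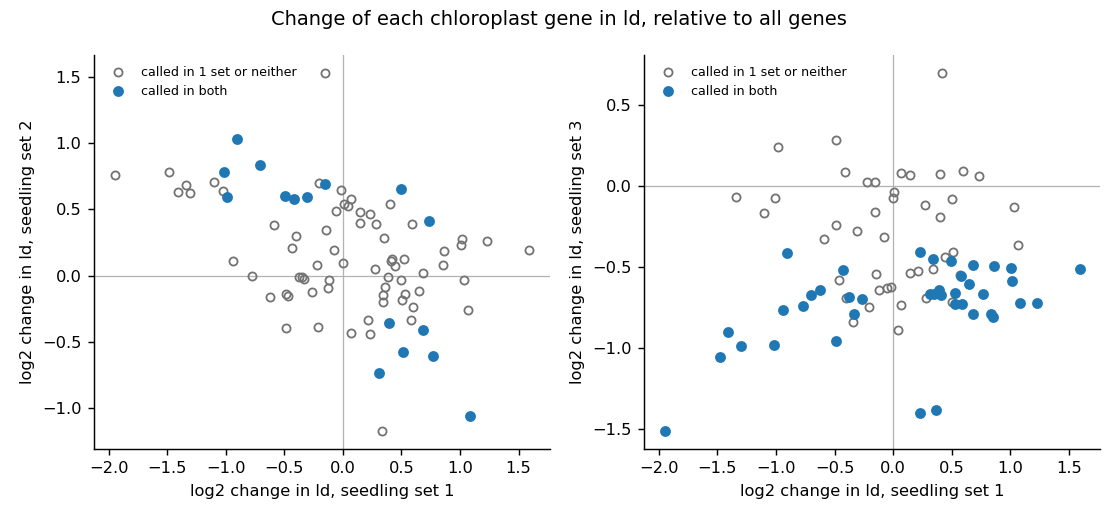
Log2 change in ld against Col0, relative to all genes, of each chloroplast-encoded gene in seedling set 1 (x axes) against set 2 (left) and set 3 (right). Filled points were called in both sets; on the left 14 of the 16 have opposite signs, and on the right 25 of 40.

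Nuclear genes for chloroplast functions had different counts in each set, and the difference between sets was not tested. Of 32 nuclear partners of the chloroplast complexes, limma called 4 higher and 21 lower in ld of set 1, 31 higher in ld of set 2, and 11 higher and 6 lower in ld of set 3. In set 2, 28 partners were higher and 1 lower in pol2a, and 29 were higher in ld pol2a. RBCS1B, a small subunit of Rubisco, fell by 0.42 ± 0.03 in ld of set 1 (adjusted p = 5.56e-10, limma) and rose by 0.43 ± 0.04 in ld of set 2 (adjusted p = 2.86e-08). The shares of all genes called higher and lower were 25.4% and 27.6% in set 1, 18.2% and 16.2% in set 2, and 19.2% and 19.3% in set 3. Of the transcription machinery, 7 of 19 were higher and 4 lower in ld of set 1, 12 higher in ld of set 2, and 10 higher and 1 lower in ld of set 3. SIG1, a sigma factor, rose by 0.47 ± 0.05 in ld of set 2 (adjusted p = 7.07e-07, limma) and 0.43 ± 0.03 in ld of set 3 (adjusted p = 1.11e-06). The 5 green markers summed to 21790 to 23113 per 1e6 of signal in set 2 Col0, 30437 to 30911 in ld, 28875 to 30052 in pol2a and 32363 to 33782 in ld pol2a. They summed to 33397 to 34737 in set 1 Col0 and 31627 to 32408 in ld, and to 44184 to 45615 in set 3 Col0 and 44283 to 47003 in ld. The 6 root markers summed to 102.6 to 107.9 in set 2 Col0, 73.4 to 75.2 in ld, 74.8 to 76.9 in pol2a and 67.7 to 68.3 in ld pol2a. In set 1 they summed to 140.6 to 152.7 in Col0 and 110.2 to 112 in ld, so both lists moved with the genotype in these sets. Their part in the chloroplast gene changes was not tested.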

How the data were processed

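The library kit was NEBNext Ultra II on poly(A) RNA, per the labels' protocols. The submitters' processing notes name Trimmomatic 0.38, HISAT2, SAMtools 1.9, featureCounts, deepTools and DESeq2 with TAIR10; no source used here says whether counting used strand or how reads with several positions were treated. For apices the authors deposited raw read counts per gene. For seedlings the deposited unit is a signal, the read count of a gene over 1 factor per library; 100% of values were whole multiples of 1 step within 0.1 reads, which gave the recovered reads. In each seedling set 1 within-group direction of variation was almost missing (smallest variance 0.00696, 0.0469 and 0.185 of counting noise, against 1.14 or more for the next), so the spread is understated there and seedling p-values are too small. Set 3 Col0 libraries 1 and 2 differed by less than sampling noise over all genes (chi-square 0.605 per degree of freedom) but lie along that direction; they were kept as 2 and also averaged as 1.

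Signal was tested in R 4.3.3 with limma 3.58.1, after log2(signal + 1), where a gene's mean was at least 10, on the deposited scale and after median-of-ratios scaling (relative to all genes); folds on that scale understate the change of low genes. Counts were tested with edgeR 4.0.16 (quasi-likelihood, robust, TMM). Adjusted p-values are Benjamini-Hochberg over all genes of a comparison, with a threshold of 0.05. The fits relative to all genes and the count fit were run on simulated data, and the fits on the deposited scale were not. The simulation drew libraries independently, without the missing direction of variation, so it does not check the seedling p-values. Alternatives included DESeq2 1.42.0.

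The labels give replicate numbers no shared meaning. Deviations of same-numbered libraries correlated above 0.1 in 3 of 9 pairs in set 1, 0 of 18 in set 2, 0 of 3 in set 3 and 12 of 18 in apices, among these all 3 pairs of Col0 with ld and all 3 of Col0 with pol2a, but not all of Col0 with ld pol2a. The fits reported have no block, and apex values with the block are given where they change a call or a count by over 1.5 times. The members and lists were chosen with earlier results of these data known. Names came from the reference notes that cite an ATCG identifier, matched to the chloroplast genome by BLAST 2.17.0 (6 identifiers are named; the own results of 1 further gene are not reported here). Since the planned rule for named genes needs symbols, those 6 are named, with the 2 unnamed identifiers of largest called rise and the 2 of largest called fall against Col0 (table mean of at least 50). ATCG00040 was named after its values were seen. Nuclear genes were named by largest change past the threshold.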

Additional observations from a re-analysis of the deposited data

Results flagged for a closer look

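In seedling set 2 the effect of ld in the pol2a background differed from its effect in Col0, by limma's interaction term relative to all genes, for 3 named chloroplast genes and 3 unnamed identifiers. The difference in log2 change was 2.01 for ndhK (adjusted p = 2.47e-06, limma), 1.1 for rpl20 (adjusted p = 0.0241) and 1.04 for ATCG00220 (adjusted p = 0.000255). It was -1.49 for ndhJ (adjusted p = 5.66e-05, limma), -2.72 for ATCG00920 (adjusted p = 2e-04) and -1.92 for ATCG01180 (adjusted p = 0.00248). The neighbours ndhJ and ndhK thus had interactions of opposite sign. In apices the interaction passed for ATCG00220 alone among the 10 named members, at -4.14 (adjusted p = 0.0488, edgeR), and that value includes ld library 3; without it the value was -2.25 (adjusted p = 0.0623). Leaving out 1 library ended this apex call for 11 of the 12 libraries (adjusted p up to 0.126, edgeR), among them ld library 3, and the replicate block and the lack of a filter on low counts ended it too (up to 0.138). The rpl20 call in set 2 ended for 6 of the 12 (up to 0.0848, limma), namely Col0 library 1, ld libraries 2 and 3, pol2a libraries 1 and 2 and ld pol2a library 3. With edgeR on recovered reads the set 2 calls of rpl20 and ATCG01180 ended (adjusted p of 0.133 and 0.0513). Groups of 3 libraries were not tested for single outlying libraries.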

How the results depend on the processing

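Counts of called members stayed within 1.5 times the reported count, and ratios of chloroplast share within 1 SD, under the pseudocount of 5, the filter at a mean of 50, no filter on seedling values, filterByExpr, TMM over nuclear-encoded genes, the share of nuclear-encoded genes and, added after the data were seen, the averaging of set 3 Col0 libraries 1 and 2. The edgeR test on recovered reads of set 2 called 11 members in ld, 18 in pol2a, 14 in ld pol2a and 30 for the interaction, against 21, 35, 26 and 46 by limma. In apices DESeq2 called 15 in ld, 17 in pol2a and 8 for the interaction, against 3, 10 and 4 by edgeR, and with no filter on low counts edgeR called 1 in pol2a and 8 in ld pol2a, against 10 and 21. With replicate number as a block, 5 members were called in ld apices against 3, and every other count stayed within 1.5 times. The block called ndhJ in ld pol2a apices and the ndhK interaction in apices (adjusted p of 0.034 and 0.0453, edgeR) and ended the ATCG00220 interaction (0.0534). The cause of these differences was not tested.

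Leaving out 1 library gave 0 to 46 called members in ld apices, 0 to 7 in pol2a apices, 4 to 19 in ld pol2a apices and 0 to 30 for the apex interaction. In seedlings it gave 15 to 36 in ld pol2a of set 2 relative to all genes (15 without Col0 library 3), and 27 to 49 in ld of set 3 on the spike-in scale (49 without ld library 2). Where an apex group keeps 2 libraries, its spread is assumed like that of the other groups. On the spike-in scale of set 3, cemA in ld had a log2 change of 0.02 that was not called and ran from -0.18 to 0.17, called at -0.18 without ld library 3; ATCG00220 had -0.02 and ran from -0.49 to 0.49, called at 0.49 without ld library 2. Of the named members' results under all alternatives, 1917 kept their side of the threshold, 116 lost a call, 63 gained one and 2 reversed. The alternatives with protein-coding members alone and with members outside the inverted repeat were not run, since the reference used here ties few identifiers to a gene. At these depths a change of rpl2 in apices rests on few counts.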
